A study of Mus musculus with 3 samples.

Results

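The genes that set the pace of the G1 phase were read on 3 arrays of mouse embryoid bodies, which are clusters of embryonic stem cells that differentiate in suspension. The set holds 10 genes of 18193 on the arrays: the D-type cyclins Ccnd1, Ccnd2 and Ccnd3, the E-type cyclins Ccne1 and Ccne2, the kinases Cdk2, Cdk4 and Cdk6, the inhibitor Cdkn1b and the pocket protein gene Rb1. All probe sets whose only gene symbol in the platform annotation is one of these names were taken, which gave 28 of 34945 probe sets. The set was chosen by the genes' roles with earlier results of these arrays known, and on one measured value, the high log2 signal of Ccnd1 in MI, so the values of Ccnd1 are a description with no test.

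The bodies came from embryonic stem cells of the strain 129S7/SvEv Brd-Hprt b-m2 and were collected on day 7. The RQ bodies carried human BRCA1 with a substitution that the series design gives as R1699Q and the array's own label as R1669Q, the MI bodies carried human BRCA1 with M1652I, and the WT bodies carried wild-type human BRCA1. Human BRCA1 was thus shared by the 3 genotypes, and the labels do not say whether mouse Brca1 was intact, how the human gene was introduced, or whether each line was 1 clone. Each genotype was read on 1 array, so no difference below has a replicate check, no test was run, and precision is limited by having so few arrays. Values are log2 signals as deposited, and a gene is read from whichever of its probe sets was brightest on average. Genes were counted as higher or lower at 2-fold (a log2 difference of 1) where the higher of the 2 arrays reached the level filter, the median of all signals (log2 6.31). Both mutant arrays are set against the same WT array. Means of the arrays were equal at 6.60, but signals spread less widely in MI (SD 1.06) than in RQ or WT (SD 1.17 in each), so differences of bright genes against MI depend on the scaling and are given with a lowess correction for level where it matters.

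In the G1 phase, D-type cyclins bind Cdk4 and Cdk6 in response to mitogens, and the active kinases phosphorylate the retinoblastoma protein Rb1, which releases E2F transcription factors. E-type cyclins with Cdk2 complete this step and start DNA replication, while Cdkn1b (p27) holds the kinases back. Embryonic stem cells are known for a short G1 phase with low D-type cyclins and high cyclin E and Cdk2 activity, and G1 lengthens as they differentiate.

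Promoter windows of the kinases Cdk2 and Cdk4 are shown because, on the probe sets used, the MI signal of these 2 kinases was below WT by 1.5-fold or more. Cdkn1b, which is not a kinase, also passed that limit on the probe set used, and its window is not printed. The RefSeq table for GRCm38.p6 gave windows for 6 of the 10 genes, from 250 bases before to 50 bases after the start. They were searched on both strands for the E-box CACGTG, the site of Myc family proteins, and for the E2F words TTTCCCGC, TTTCGCGC, TTTGGCGC and TTTGCCGC. Capitals mark the matches. The Cdk4 window lies at chr10:127063285-127063584 on the plus strand, and the Cdk2 window at chr10:128705002-128705301 on the minus strand.
Cdk4: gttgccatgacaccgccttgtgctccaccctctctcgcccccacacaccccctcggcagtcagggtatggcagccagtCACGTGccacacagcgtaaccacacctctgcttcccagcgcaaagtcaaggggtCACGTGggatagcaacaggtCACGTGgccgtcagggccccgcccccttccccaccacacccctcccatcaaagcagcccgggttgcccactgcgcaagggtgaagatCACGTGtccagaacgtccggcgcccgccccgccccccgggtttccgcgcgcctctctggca
Cdk2: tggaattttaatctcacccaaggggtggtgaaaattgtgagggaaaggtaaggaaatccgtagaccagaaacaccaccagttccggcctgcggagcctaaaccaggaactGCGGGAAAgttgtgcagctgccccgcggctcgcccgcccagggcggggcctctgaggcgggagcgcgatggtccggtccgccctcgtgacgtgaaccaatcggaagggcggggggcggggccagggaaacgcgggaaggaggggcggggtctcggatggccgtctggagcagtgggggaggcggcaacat
The Cdk4 window held 4 E-boxes, which began 172, 118, 98 and 11 bases before the start, and no E2F word. An E-box was present in 7.15% of all 32851 windows, and 4 or more in 8 of them (0.0244%). The Cdk2 window held 1 E2F word, GCGGGAAA on the strand shown, which began 140 bases before the start, and no E-box. An E2F word was present in 2.26% of windows. Among the other windows, that of Cdk6 held 1 E-box and those of Ccnd3, Ccne1 and Cdkn1b held neither motif. These matches describe the letters of the windows and are no evidence of binding.

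On these arrays no G1 gene stood 2-fold from WT in RQ, while the MI array differed most in Ccnd1, which was high, with Cdk4 lower than in WT on each of its probe sets. Of the 10 genes, all of which passed the level filter in each comparison, 1 stood 2-fold or more above WT in MI (Ccnd1) and 1 stood 2-fold or more below (Cdkn1b). Over all 12786 genes above the filter in that comparison, 0.516% were 2-fold higher and 2.44% were 2-fold lower. Against WT, 0 genes of the set were 2-fold higher and 0 were 2-fold lower in RQ, where 1.68% and 1.49% of 12226 genes were. Against MI, 0 were 2-fold higher and 1 was 2-fold lower in RQ (Ccnd1), where 1.98% and 0.508% of 12800 genes were. With 10 genes these counts are too few to be set apart from those shares. The set was chosen with Ccnd1 known to be high in MI. Both counts that rest on Ccnd1 therefore follow from that choice and are no result about the set. The median difference of the set was -0.16 for MI minus WT, 0.02 for RQ minus WT and 0.22 for RQ minus MI, against 0.06, 0.01 and -0.05 for all genes above the filter. After the lowess correction the medians of the set were 0.03, 0.01 and 0.01.

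**Figure D1:**
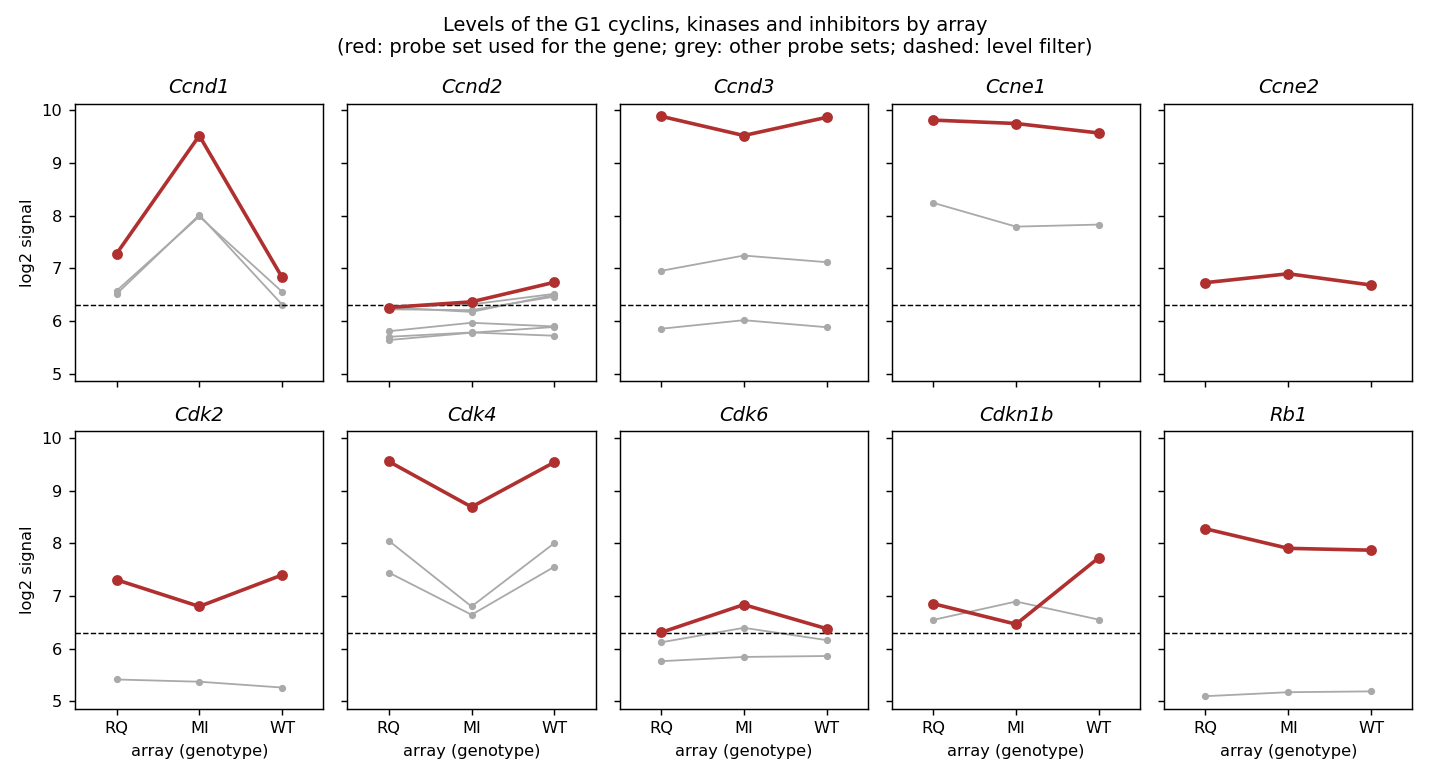
Log2 signal (vertical axis) of each probe set of the 10 genes on the RQ, MI and WT arrays (horizontal axis). Red marks the probe set used for the gene, grey the others, and the dashed line the level filter of 6.31. The 3 lines of Ccnd1 peak at MI, the 3 lines of Cdk4 dip at MI, and the 2 lines of Cdkn1b cross.

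Ccnd1 encodes cyclin D1, the mitogen-induced partner of Cdk4 and Cdk6. The probe set used (1417420_at) read 7.28 in RQ, 9.52 in MI and 6.83 in WT. The level in MI was thus 6.47-fold that in WT, and the RQ level 1.36-fold that in WT and 4.74-fold below that in MI. Its 2 other probe sets had the same order for MI, with 6.57 and 6.51 in RQ, 7.98 and 8.01 in MI, and 6.55 and 6.31 in WT. These read 2.69-fold and 3.26-fold higher in MI than in WT. All 3 probe sets stood past 2-fold in MI and none did in RQ, where they differed from WT by 0.45, 0.02 and 0.20 on the log2 scale. In WT and RQ 2 of the 3 probe sets lay within 0.3 of the level filter, where signals are compressed towards background, so the fold against them can understate the ratio. In such bulk samples, more cells of a type and more RNA per cell cannot be told apart, here and in the results that follow.

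The other D-type cyclins showed no such reading in MI. Ccnd2, an alternative partner of the same kinases, has 7 probe sets, and its levels lay near the filter on each array. The one used read 6.25 in RQ, 6.36 in MI and 6.73 in WT. The 4 Ccnd2 probe sets that reached the filter in WT each stood lower in MI, by 0.20 to 0.37 on the log2 scale, and lower in RQ, by 0.24 to 0.48. The 3 others stayed below the filter on every array. Ccnd3 read 9.89 in RQ, 9.52 in MI and 9.87 in WT. The MI minus WT difference of -0.35 for Ccnd3 was -0.02 after the lowess correction, and its second probe set above the filter differed by 0.13, so no shift of Ccnd3 was read.

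The E-type cyclins, which activate Cdk2 at the end of G1, stayed near WT. Ccne1 read 9.82 in RQ, 9.75 in MI and 9.57 in WT on the probe set used, and 8.24, 7.79 and 7.83 on the other. Both Ccne1 probe sets were higher in RQ than in WT, by 0.24 and 0.41 on the log2 scale, while for MI minus WT they gave 0.18 and -0.04. The first of these became 0.50 with the lowess correction and 0.57 with repeated quantile normalization. It comes from the probe set used, whose suffix marks it as open to several transcripts. Ccne2, read by a single probe set, was at 6.73 in RQ, 6.90 in MI and 6.68 in WT. No cyclin E probe set was 2-fold apart between any arrays.

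Among the kinases, Cdk4 was lower in MI on each of its probe sets. Cdk4, the main partner of D-type cyclins, read 9.56 in RQ, 8.69 in MI and 9.54 in WT on the probe set used (1422441_x_at). The MI level was 1.80-fold below WT, and 3.79% of the genes above the filter were as low or lower in that comparison. A second Cdk4 probe set (1422440_at) read 8.05 in RQ, 6.80 in MI and 8.004 in WT, so that MI lay 2.30-fold below WT. The third (1422439_a_at) read 7.45 in RQ, 6.64 in MI and 7.56 in WT, or 1.88-fold lower. The RQ and WT readings of Cdk4 differed by at most 0.11 on the log2 scale on any of them. The suffix of the probe set used marks it as open to several transcripts, and with such probe sets left out Cdk4 passed 2-fold (MI minus WT -1.20, RQ minus MI 1.25). Under 2 other scalings the MI minus WT difference was smaller, at -0.59 with the lowess correction and -0.47 with repeated quantile normalization. Cdk4 and Ccnd1, whose proteins form 1 complex, thus stood on opposite sides of WT on the MI array.

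Cdk2, the partner of E-type cyclins, read 7.31 in RQ, 6.80 in MI and 7.40 in WT. Its MI level was 1.51-fold below WT (log2 difference -0.60, and -0.68 after the lowess correction). At a limit of 1.5-fold, Cdk2, Cdk4 and Cdkn1b were below WT in MI, where 8.04% of genes were. At that limit 1 gene of the set was lower in RQ against WT (Cdkn1b, where 4.34% of genes were) and 1 was higher in RQ against MI (Cdk4, where 9.54% were). The value of Cdk2 rests on 1 probe set open to several transcripts, since its other probe set read 5.41, 5.37 and 5.26 and lay below the filter on each array. Cdk6, the second partner of D-type cyclins, read 6.31 in RQ, 6.84 in MI and 6.38 in WT. The difference of Cdk6 for MI minus WT was 0.46 on the log2 scale, with 0.23 on the second probe set and -0.02 on the third, which stayed below the filter. Of the genes above the filter, 3.83% were as high or higher than Cdk6 in MI against WT. The Cdk6 signals in RQ and WT lay at the filter.

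Cdkn1b, which encodes the Cdk inhibitor p27, could not be read as a single pattern because its probe sets disagreed. The one used (1434045_at) read 6.85 in RQ, 6.46 in MI and 7.73 in WT. That is 1.83-fold lower in RQ and 2.40-fold lower in MI, each against WT. The other Cdkn1b probe set (1419497_at) read 6.55 in RQ, 6.89 in MI and 6.55 in WT, with a difference of 0.34 for MI minus WT and -0.005 for RQ minus WT. Their mean difference for MI minus WT was -0.46, short of 2-fold. The 2 probe sets thus pointed opposite ways in MI, and the choice between them decides whether Cdkn1b counts as lower. The spread between probe sets of 1 gene (pooled SD of their differences, MI minus WT) was 0.47 for the G1 genes, against 0.28 for all genes with several probe sets above the filter. For RQ minus WT the order was reversed, with 0.24 for the G1 genes against 0.33. For RQ minus MI the values were 0.35 and 0.30. The MI minus WT value pools only 7 G1 genes, with Ccnd1 and Cdkn1b among them.

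Rb1, the pocket protein that Cdk4 and Cdk2 phosphorylate, read 8.28 in RQ, 7.91 in MI and 7.87 in WT. The RQ level of Rb1 was 1.33-fold that in WT, and 12.3% of genes above the filter were as high or higher. In MI its difference from WT was 0.03. The second probe set, at 5.10, 5.17 and 5.19, lay below the filter and gave no reading.

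**Figure D2:**
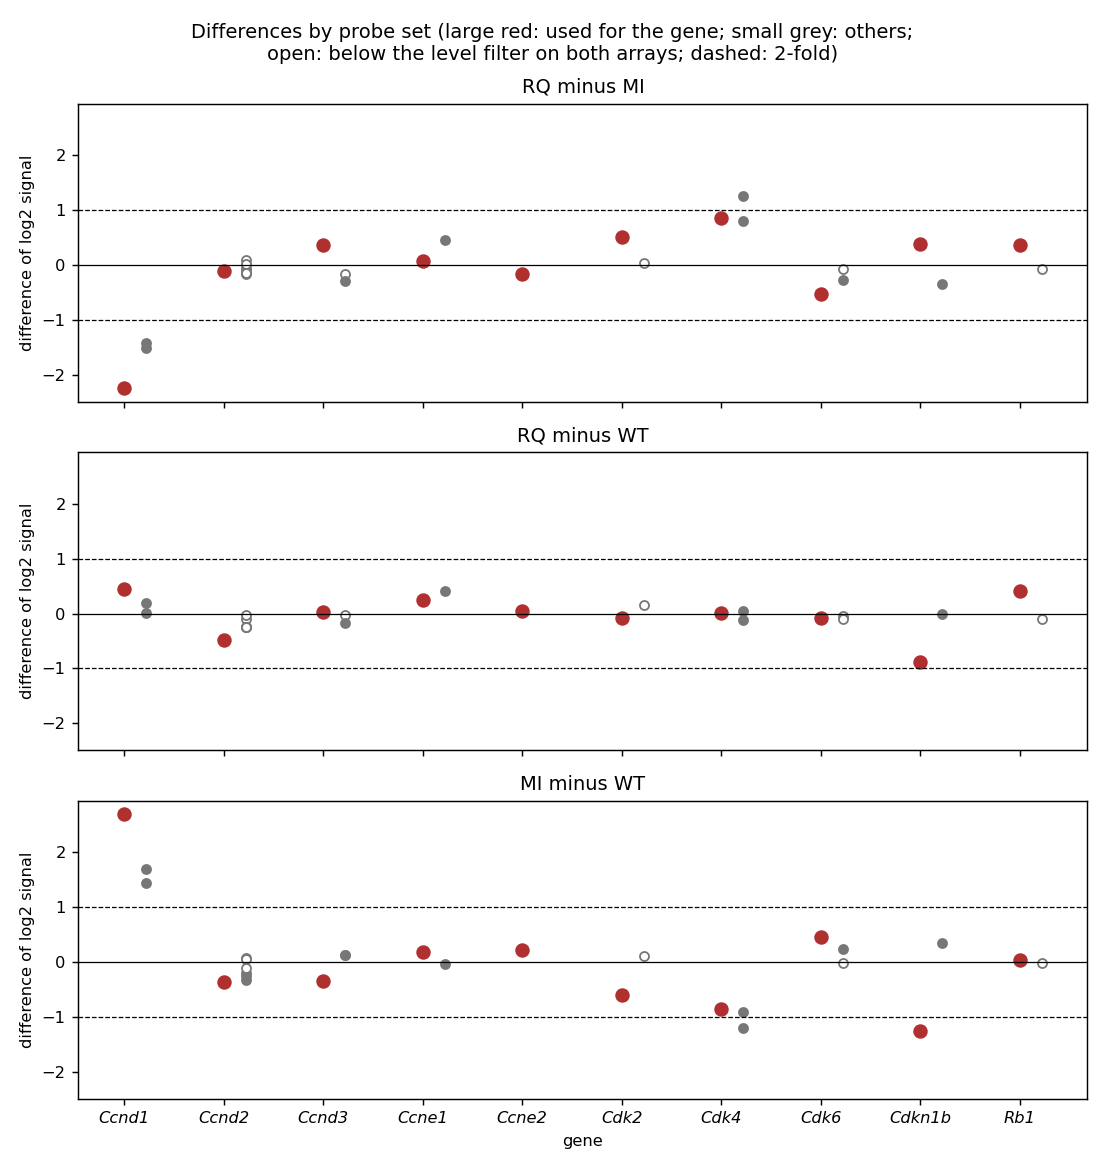
Difference of log2 signal (vertical axis) for each probe set of the 10 genes (horizontal axis), in panels for RQ minus MI, RQ minus WT and MI minus WT. Large red points are the probe sets used and small grey ones the others, open where both arrays lay below the level filter, and dashed lines mark 2-fold. In the MI minus WT panel the 3 points of Ccnd1 lie above 2-fold, and those of Cdk4 lie from -1.20 to -0.85.

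The pattern of Ccnd1 was set beside all other genes by the distance between their 3 levels, each gene centred on its own mean, over 12970 genes with an array above the filter. With 3 arrays such likeness is a description of these arrays. The nearest was the chemokine gene Cxcl1, at a distance of 0.41 log2 units, with 7.08 in RQ, 9.41 in MI and 7.18 in WT. It was followed by the adhesion molecule Vcam1 (0.44), the membrane protein gene Tm4sf1 (0.49), Cpe, which encodes carboxypeptidase E (0.56), and Emp1 (0.57). Each of these 5 genes was high on the MI array alone, by 1.90 to 2.81 on the log2 scale above WT. For the Cdkn1b probe set used, the nearest were Scarb2 (0.03), Plp2 (0.05), Cyba (0.05), Uck2 (0.06) and Sec24c (0.06), which were highest in WT and lowest in MI.

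Of 16 markers of mesenchymal cells and fibroblasts, 7 were 2-fold higher on the MI array, as Ccnd1 was, and 9 were not. For MI against WT 13 of the 16 reached the filter, with a median difference of 1.64, and 0 were 2-fold lower. Over all genes above the filter, 0.516% were 2-fold higher and 2.44% were 2-fold lower in that comparison. For RQ against WT, 10 of the 16 reached the filter, with 0 higher and 0 lower, where 1.68% and 1.49% of all genes were. The mean log2 level of the 16 was 6.55 in RQ, 8.0005 in MI and 6.68 in WT. S100a6 read 6.19 in RQ, 10.36 in MI and 6.56 in WT, S100a4 read 5.93 in RQ, 9.33 in MI and 6.02 in WT, and Cd44 read 5.98 in RQ, 9.37 in MI and 6.10 in WT, although 1 of the 4 Cd44 probe sets differed by -0.06 between MI and WT. The rest of the 7, by MI minus WT, were Dcn (2.96), Vim (2.83), Bgn (2.48) and Col1a2 (1.64). All Vim probe sets read 2.52 or more, whereas others of Dcn, Bgn and Col1a2 read down to 0.09, 0.59 and -0.07. Of the 9 markers short of 2-fold, Thy1, Twist1 and Lum stayed below the filter on each array. The MI minus WT differences of the others were 0.46 for Col1a1, 0.22 for Prrx1, 0.09 for Col3a1, 0.07 for Postn, 0.05 for Pdgfrb and -0.40 for Fn1, the gene of fibronectin, whose other probe set read -0.84. Stem cells were separated from feeder cells on gelatin before the bodies were formed, per the labels. The part of these markers in the level of Ccnd1 was not tested.

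**Figure D3:**
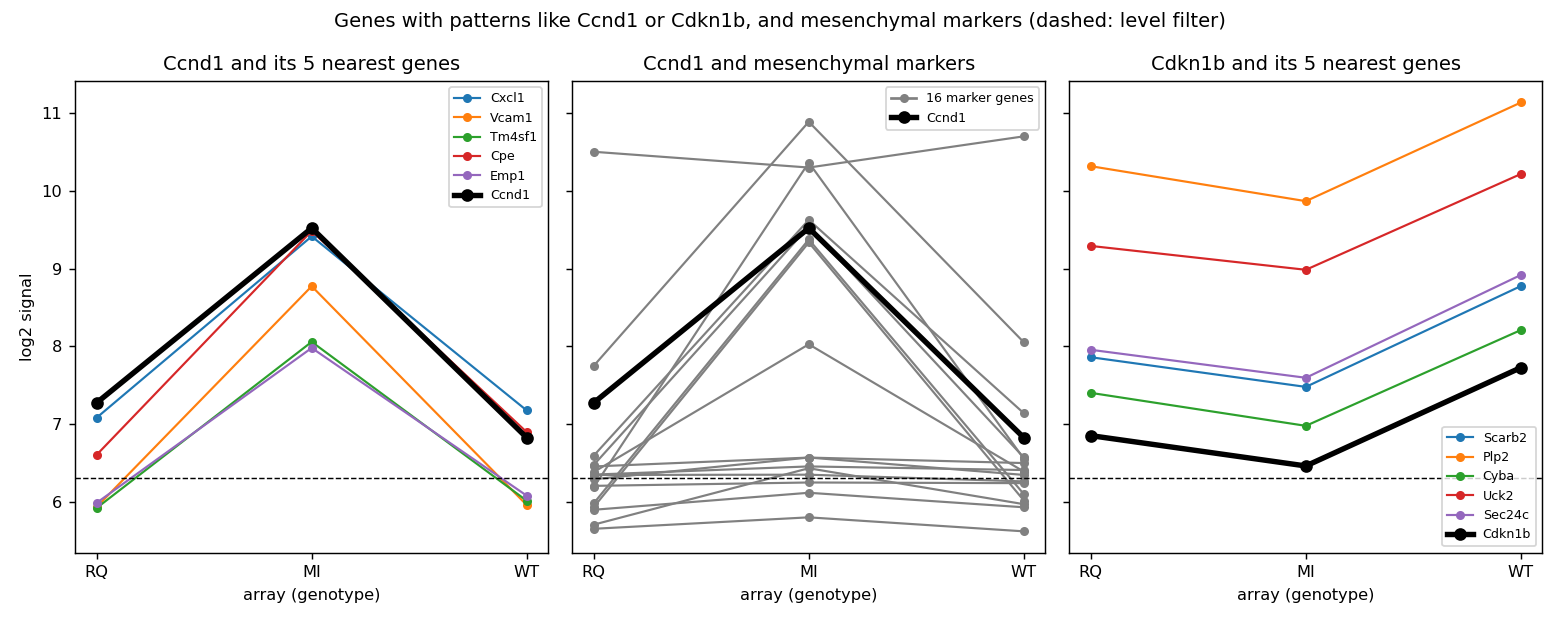
Log2 signal (vertical axis) on the RQ, MI and WT arrays (horizontal axis) for Ccnd1 with its 5 nearest genes, for Ccnd1 with the 16 mesenchymal markers, and for Cdkn1b with its 5 nearest genes. The thick black line is the named G1 gene and the dashed line the level filter. Ccnd1 and its nearest genes peak at MI, and 7 of the grey marker lines do so by more than 2-fold.

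Markers of other cells of the bodies also differed between the arrays. Over all genes above the filter, 1.68% stood 2-fold above WT in RQ and 1.49% stood 2-fold below. In MI these shares were 0.516% and 2.44%. Of 11 parietal endoderm markers, 7 in RQ and 7 in MI stood 2-fold or more below WT, among 10 above the filter in each comparison. The mean level of the list was 7.24 in RQ, 7.44 in MI and 9.22 in WT. The largest differences over the 3 comparisons were those of Lama1 (5.98 in RQ, 6.11 in MI and 9.93 in WT), Sparc (8.52 in RQ, 9.16 in MI and 12.37 in WT) and Col4a2 (-3.46 for RQ minus WT and -3.30 for MI minus WT), although another Sparc probe set read -0.25 for RQ minus WT and -0.27 for MI minus WT. Of 14 visceral endoderm markers, 11 reached the filter, and 5 in RQ and 5 in MI stood 2-fold below WT, led by Cubn (6.09 in RQ, 6.08 in MI and 10.67 in WT), Apoe (7.91 in RQ, 6.94 in MI and 10.58 in WT) and Dab2 (6.25 in RQ, 6.82 in MI and 9.69 in WT). Other Dab2 probe sets read as little as -0.64 for RQ minus WT and -0.49 for MI minus WT. The visceral list was thus split, with 6 of 11 above 0 for MI minus WT (median 0.01). For RQ minus WT 2 of 11 were above 0 (median -0.26). The 6 in MI were Afp, Ttr, Apob, Hnf4a, Gata6 and Sox17, at 0.01 to 0.27. Other probe sets of Ttr, Gata6 and Sox17 read down to -0.44, -1.08 and -1.47 for MI minus WT. Of 14 pluripotency markers, 8 stood 2-fold above WT in RQ and 0 below. In MI 3 were higher and 2 lower than in WT, among 13 above the filter. The largest differences of this list over the 3 comparisons were those of Dppa2 (10.55 in RQ, 9.02 in MI and 7.38 in WT), Klf2 (10.99 in RQ, 8.75 in MI and 9.31 in WT) and Nr0b1 (8.12 in RQ, 6.18 in MI and 6.20 in WT). The 2 lower in MI, named after their values were seen, were Utf1 (10.44 in RQ, 8.97 in MI and 10.53 in WT) and Pou5f1 (11.25 in RQ, 10.21 in MI and 11.39 in WT), although the MI minus WT differences of the Utf1 probe sets reached -0.03. After the lowess correction Pou5f1 was at -0.77 for MI minus WT, short of 2-fold, and Utf1 was at -1.23. The part of any of these markers in the values of the G1 genes was not tested.

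The rest of the G1 pathway was described from 7 further lists with 99 entries, 96 of them with a named probe set. Inhibitors other than Cdkn1b showed no 2-fold difference in any comparison. Of the 6, Cdkn1c (p57) read 5.91 in RQ, 6.34 in MI and 6.85 in WT. Cdkn2b (p15), an inhibitor of Cdk4 and Cdk6, read 7.20 in RQ, 7.68 in MI and 7.19 in WT. The 5 inhibitors above the filter were all lower in RQ than in MI (median -0.31), where 56% of all genes were.

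Downstream of the kinases, the pocket proteins, E2F factors and their DP partners had a median of 0.19 for RQ minus WT and 0.07 for MI minus WT. The only gene of these 12 past 2-fold was Tfdp2, a DP partner of E2F, at 9.48 in RQ, 7.95 in MI and 8.31 in WT. Its 4 probe sets did not all share this, since the RQ minus WT differences ranged from -0.24 to 1.17. There were 21 E2F target genes on the arrays, all above the filter in RQ against WT. Of these, 19 stood above 0 in RQ, against 51.7% of all genes, and 1 was 2-fold higher (Rrm1), where 1.68% were. The median was 0.39 for the targets and 0.01 for all genes. Against MI, 4 targets were 2-fold higher in RQ and 0 lower, where 1.98% and 0.508% of all genes were. These were the replication licensing genes Mcm2 (1.12) and Cdt1 (1.12), the polymerase subunit gene Pola1 (1.27) and the Myb family gene Mybl2 (1.495). After the lowess correction Mcm2 was at 0.78 and Cdt1 at 0.77. For RQ minus WT, Rrm1 was then at 0.99, just short of 2-fold. Some of these genes had probe sets without the difference, with readings down to -0.36 for Rrm1 (RQ minus WT), and to -0.04 for Cdt1 and -0.01 for Pola1 (RQ minus MI). In MI the targets were split around WT, with 1 of 20 at least 2-fold higher and 2 lower, where 0.516% and 2.44% of all genes were. The higher target was Gins1 (1.34, and 0.18 on its other probe set). The 2 lower were Mybl2 (-1.02) and the chromatin protein gene Uhrf1 (-1.11), and Mybl2 was at -0.84 after the lowess correction. The median of the targets for MI minus WT changed sign with scaling, from -0.14 as deposited to 0.19 after the lowess correction. For RQ minus MI the median of the targets also depended on scaling, at 0.51 as deposited and 0.18 after the lowess correction.

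Among the activators and cyclin A no gene was 2-fold apart. The largest differences were those of Cdc37, a chaperone partner of Cdk4 (9.88 in RQ, 9.67 in MI and 10.35 in WT), and of Cdk7, a kinase that activates other Cdks (7.68 in RQ, 7.32 in MI and 7.10 in WT). For MI minus WT the Cdc37 difference was -0.68, and -0.33 after the lowess correction. Of the genes for turnover of G1 regulators, 1 stood 2-fold above WT in RQ, where 1.68% of all genes did. This turnover gene was Fbxw7, the ubiquitin ligase subunit that targets cyclin E, at 7.63 in RQ, 6.87 in MI and 6.37 in WT. Both Fbxw7 probe sets were higher in RQ, by 1.26 and 0.93.

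Upstream of the D-type cyclins, mitogen and Wnt inputs were mixed, with a median of 0.20 for RQ minus WT and 0.05 for MI minus WT. In RQ 3 of 15 genes stood 2-fold above WT and 3 stood 2-fold below, where 1.68% and 1.49% of all genes did. Higher were Etv5, an ETS factor of the FGF and ERK pathway (1.92), Spry2, a feedback inhibitor of that pathway (1.16), and Mycn, a Myc family factor of embryonic cells (1.12). All 3 Etv5 probe sets were past 2-fold, at 1.90 to 2.04, whereas other probe sets of Spry2 and Mycn read down to 0.25 and -0.24. Lower were the immediate early genes Fos (-1.42), Junb (-1.21) and Jun (-1.06, and -0.33 on its other probe set). In MI 1 gene stood 2-fold below WT, namely Fos (-1.15), and 0 were 2-fold higher, where 2.44% and 0.516% of all genes were. The highest of the list in MI was Spry2 (0.82). None of these inputs shared the order of Ccnd1 at 2-fold. The closest in direction was Fosl1, a Fos family factor chosen here after its values were seen, at 6.33 in RQ, 7.07 in MI and 6.30 in WT. Mycn read 9.82 in RQ, 8.86 in MI and 8.70 in WT, and Myc stayed below the filter on each array.

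Cyclins and kinases outside G1 gave a background for the family. Of 21 above the filter, 0 stood 2-fold above WT in MI and 2 stood 2-fold below, where 0.516% and 2.44% of all genes did. The same 2 of 20 were lower in RQ (1.49% of all genes), and 0 were higher (1.68%). They were Ccnl1, a cyclin of RNA splicing, at 8.62 in RQ, 8.96 in MI and 10.15 in WT, and Ccnt2, a cyclin of transcript elongation, at 7.43 in RQ, 7.09 in MI and 8.46 in WT. After the lowess correction Ccnl1 was at -0.89 for MI minus WT, short of 2-fold. The 5 Ccnt2 probe sets ranged from -1.36 to 0.07 for MI minus WT, and from -1.03 to 0.47 for RQ minus WT. No other cyclin of this list was high on the MI array as Ccnd1 was.

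**Figure D4:**
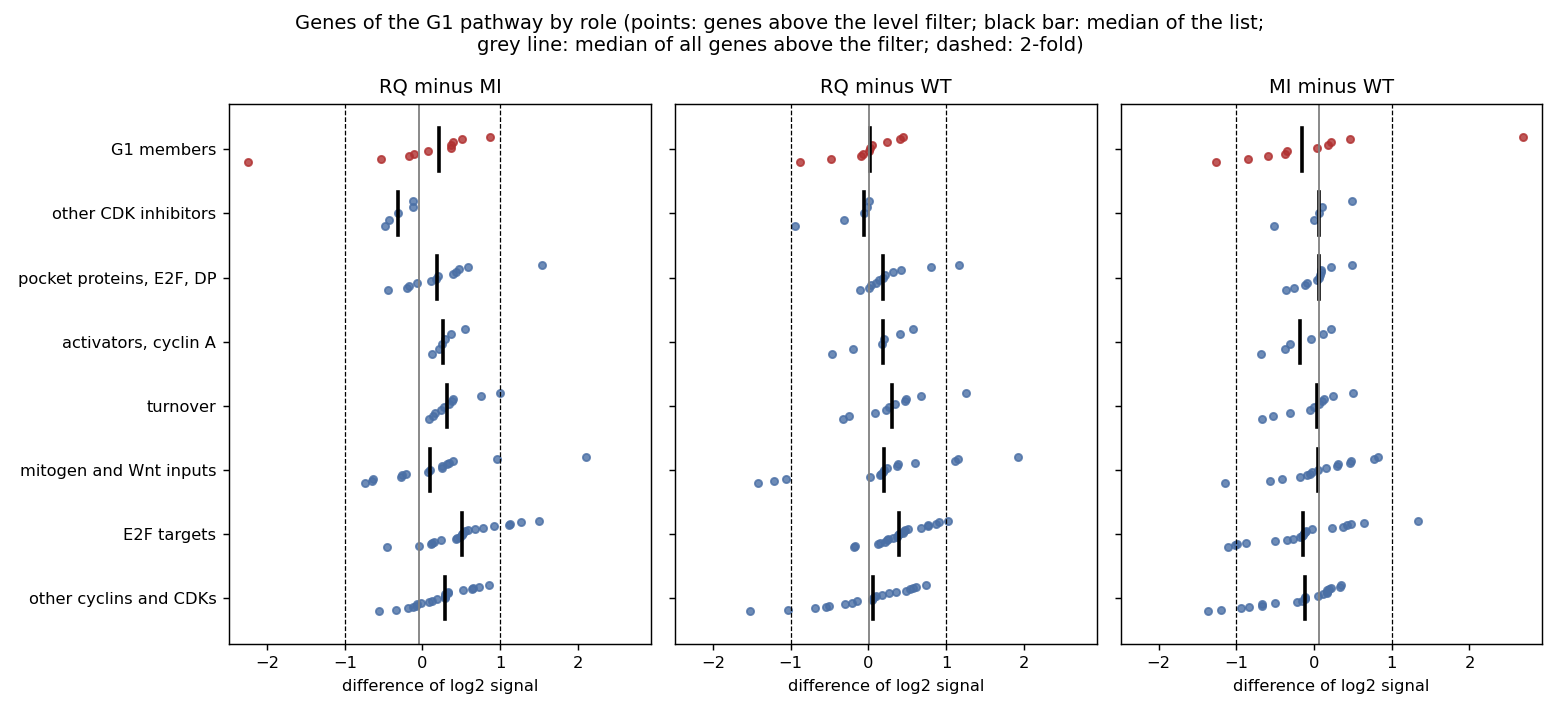
Differences of log2 signal (horizontal axis) for the 10 G1 genes (red) and 7 further lists (blue), in panels for RQ minus MI, RQ minus WT and MI minus WT. Each point is a gene above the level filter, black bars are list medians, the grey line is the median of all genes above the filter, and dashed lines mark 2-fold. In the MI minus WT panel Ccnd1 lies at 2.69, and in the RQ minus WT panel 19 of the 21 E2F targets lie above 0.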

How the data were processed

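RNA of embryoid bodies of day 7 (6 ug per sample, per the labels) was hybridized to 3 Affymetrix mouse expression arrays with 45101 probe sets each. The values are log2 signals as deposited by the authors. The submitters' processing notes name Partek and RMA, with no version given. RMA subtracts background, aligns the arrays' distributions and summarises the probes of a set. The deposited signals were not fully aligned, since their spread was smaller in MI (SD 1.06) than in RQ or WT (SD 1.17 in each). Scans, detection calls and dates were not analysed here. Of the probe sets, 34958 had 1 gene symbol in the platform annotation, 932 had several and 9211 had none, and 64 control probe sets were left out. Entrez identifiers of all 28 probe sets of the G1 genes matched the RefSeq symbols of GRCm38.p6, a build used for names and promoter windows only.

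Differences, medians and counts were computed with Python 3.11.15, pandas 2.3.3 and statsmodels 0.14.6 (lowess span 0.3, 3 robustness iterations), and the counting was tested on simulated data. The members and gene lists were chosen with earlier results of these data known. The text names all members, list genes past 2-fold (or else the 2 with the largest difference), the 3 markers of a list with the largest difference, and the 5 genes nearest in pattern to each member past 2-fold. Further genes are given as exceptions or to complete a list, after their values were seen: the other mesenchymal markers, other markers short of 2-fold, Utf1, Pou5f1, Fosl1 and Myc. Alternatives were other scalings, summaries of probe sets, filters and limits.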

Additional observations from a re-analysis of the deposited data

How the results depend on the processing

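Ccnd1 was at least 2-fold higher in MI than in WT, and 2-fold lower in RQ than in MI, under each scaling, filter, summary and limit tried. Its MI minus WT difference of 2.69 was 1.94 with the mean of its probe sets, and 2.63 to 2.93 under the 3 other scalings. The count of G1 genes lower in MI than in WT, 1 as reported, was 0 with means of probe sets, 2 when _x_at, _s_at and _a_at probe sets (open to several transcripts) were left out, 3 at 1.5-fold and 0 at 3-fold. At 1.5-fold 1 gene was lower in RQ than in WT (Cdkn1b) and 1 was higher in RQ than in MI (Cdk4), and with those probe sets left out 1 was higher in RQ than in MI (Cdk4). Of 150 alternative values of single G1 genes, 0 past 2-fold changed sign and 5 crossed 2-fold or moved by more than 1.5-fold. Among list medians, 10 of 126 moved by at least 0.25. For E2F targets the median was 0.25 after quantile normalization again and 0.19 after lowess for MI minus WT, and 0.14 and 0.18 for RQ minus MI. For activators it was 0.12 after quantile normalization for MI minus WT, and -0.085 after that and -0.0099 after lowess for RQ minus MI. For other cyclins and kinases it was -0.016 and 0.021 for RQ minus MI, and for turnover genes -0.32 for MI minus WT with the filter at the 75th percentile. No scaling moved the median of all genes by over 0.1. No paired analysis was possible because each genotype has 1 array and the results come from no test. Signals near the filter limit what can be read of Ccnd2, Cdk6 and the second probe sets of Cdk2 and Rb1.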
